A study of Mus musculus with 4 samples.

Results

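The nuclei described here were those of the mouse bone marrow that carried RNA of Ccr2, of Fn1 or of both. They are proposed as progenitors of monocytes, and whether they were progenitors or later monocytes was not tested. A barcode was kept if it held at least 200 detected genes and between 1000 and 50000 chromatin accessibility (ATAC) counts in peaks. A kept nucleus was taken as a Ccr2/Fn1 nucleus if its unique molecular identifiers (UMIs, each standing for 1 captured RNA molecule) of Ccr2 and Fn1 summed to 2 or more, and those of Cd74, H2-Aa, H2-Ab1 and H2-Eb1, the MHC class II genes, summed to at most 1. This rule found 94 of 13619 kept nuclei. The barcodes carried 2 suffixes, called libraries 1 and 2, and held 56 of 5905 nuclei in library 1 (0.948%, exact 95% binomial interval 0.717 to 1.23) and 38 of 7714 in library 2 (0.493%, 0.349 to 0.676).

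The study profiled RNA and ATAC in the same nuclei of bone marrow cells that a sort had kept for carrying cKit and lacking lineage markers (Lin-cKit+), a gate meant for hematopoietic stem and progenitor cells (HSPCs). The paper's lineage antibodies included anti-CD11b and anti-Gr-1, so the shares are of sorted cells, not of whole marrow. All mice were C57BL/6 wild-type males of 8 weeks. The control group (Ctrl) had no ligature, and the ligature group (Lig) had a silk ligature around molars for 14 days, which induces periodontitis. Cells of 5 mice were pooled into 1 sample per group, and no label tied a barcode suffix to a group. Ctrl and Lig were therefore not compared, libraries 1 and 2 were described side by side without a test, and every interval covers counting error only, not the spread between mice.

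Monocytes arise in the marrow from progenitors that lose stem and granulocyte programs and gain genes for lysosomal digestion, oxidant production and chemotaxis. Ccr2 encodes the receptor for the chemokine Ccl2, which monocytes use to leave the marrow. Fn1 encodes the matrix glycoprotein fibronectin, and the transcription factors Irf8, Klf4 and Zeb2 take part in monocyte and dendritic cell development.

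The UMIs that selected the nuclei were few. In library 1, 26 nuclei carried Ccr2 alone, 14 carried Fn1 alone and 16 carried both. In library 2 the corresponding numbers were 21, 11 and 6. Just inside the threshold, with a sum of 2, lay 29 nuclei of library 1 and 30 of library 2, whereas 27 and 8 held 3 or more, up to 8 and 4 UMIs. Just outside it, with a sum of 1, lay 306 (5.18%) and 407 (5.28%) of the kept nuclei. The MHC class II limit removed 2 nuclei from library 1 and 0 from library 2. These values follow from the rule and are given as a description.

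**Figure D1:**
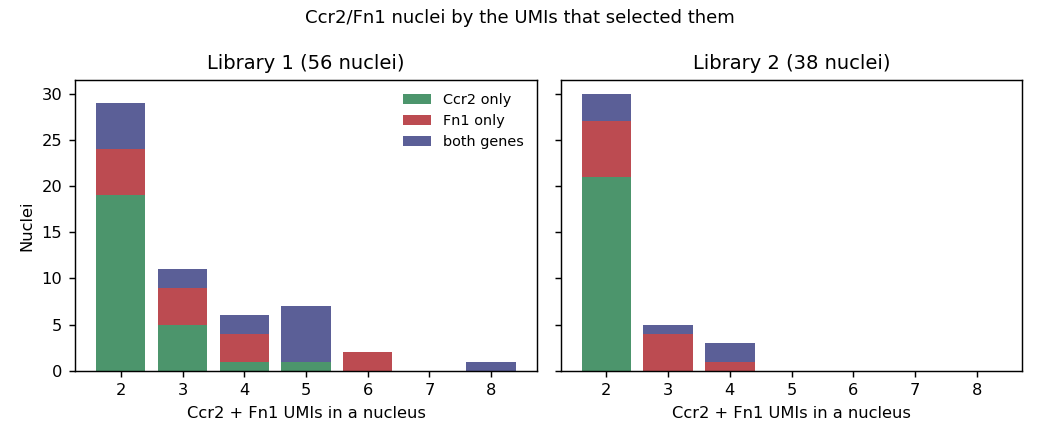
Number of Ccr2/Fn1 nuclei (y axis) by their summed Ccr2 and Fn1 UMIs (x axis), in library 1 (56 nuclei) and library 2 (38 nuclei), with colors for nuclei carrying Ccr2 only, Fn1 only or both. Most nuclei of library 2 sat at the threshold of 2 UMIs (30 of 38), against 29 of 56 in library 1.

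Depth was close to that of the other nuclei. The Ccr2/Fn1 nuclei held 124450 UMIs in library 1 and 72759 in library 2, with a median per nucleus of 1881.5 and 1700.5 against 1639 and 1515 in the other nuclei. Median ATAC counts were 20037.5 against 19464 in library 1 and 14502 against 16298.5 in library 2. Genes at the ribosomal RNA locus took 45.4% and 56.2% of their UMIs, against 43.0% and 53.1% in the other nuclei. The libraries shared 146 barcode sequences, of which 2 belonged to a Ccr2/Fn1 nucleus.

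RNA of Ccr2 was also seen in nuclei of other kinds. Ccr2 was detected in 2.24% and 4.36% of B lineage nuclei (Ebf1 and Pax5 UMIs summing to 3 or more), at median depths of 1600 and 1359 UMIs. This and the other sets set beside the Ccr2/Fn1 nuclei held only unselected nuclei that met the rule of 1 set and no other, which left 1070 and 275 B lineage nuclei. Ccr2 was detected in 4.62% and 4.85% of all nuclei outside the selection, and in 4.95% and 5.92% of the granule protease set defined below. Of the few nuclei in the MHC class II set (4 or more UMIs of those genes), 3 of 14 and 1 of 4 carried it. Those shares were 21.4% (exact interval 4.66 to 50.8%) and 25.0% (0.63 to 80.6%). Of the selected nuclei, 13 in library 1 and 5 in library 2 also met the rule of another set, 10 and 5 of them that for granule proteases (Mpo, Elane, Prtn3 and Ctsg summing to 5 or more). In library 1, 2 more met the B lineage rule and 1 the late granule rule. Whether they were doublets was not tested.

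The label was checked on 11 monocyte genes outside the rule, with levels given as CPM, the UMIs of a gene scaled to a common total of UMIs in the summed nuclei, and compared as the ratio of Ccr2/Fn1 nuclei over all other kept nuclei of the same library. Summed over the list, the level was 2025 against 790 CPM in library 1, a ratio of 2.56 (95% counting interval 2.25 to 2.91). In library 2 it was 1333 against 728 CPM, a ratio of 1.83 (1.48 to 2.24). Against single sets the list was less distinct. MHC class II nuclei (Cd74, H2-Aa, H2-Ab1 and H2-Eb1 summing to 4 or more) held 1375 (928 to 1963) and 991 (364 to 2158) CPM of it, with intervals that overlapped those of the Ccr2/Fn1 nuclei (1783 to 2291 and 1081 to 1626). Late granule nuclei (Ltf, Ngp, Lcn2 and Camp summing to 3 or more) held 1230 (1056 to 1424) and 1053 (931 to 1186) CPM and overlapped in library 2. In both libraries 10 of the 11 genes lay above 1 against all other nuclei. The exception was Ms4a6c, a membrane protein gene of myeloid cells, at 2.91 (1.65 to 4.77) in library 1 and 0.84 (0.17 to 2.46) in library 2. A list UMI was present in 53 of 56 nuclei of library 1, with a median of 4 and a highest value of 20 per nucleus, and in 35 of 38 of library 2, with a median of 2 and a highest value of 9.

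Lyz2, which encodes the antibacterial enzyme lysozyme M, led the list. It had 47 UMIs in library 1 and 12 in library 2, for ratios of 10.6 (7.64 to 14.4) and 4.45 (2.28 to 7.85). It was found in 22 of 56 and 9 of 38 nuclei, so most Ccr2/Fn1 nuclei showed none at this depth. With every nucleus thinned to 1000 UMIs, which left out 2 and 5 shallower members, it was detected in 25.9% of the Ccr2/Fn1 nuclei against 2.76% of the others in library 1 and in 18.2% against 2.92% in library 2. Lyz2 was not confined to these nuclei. Late granule nuclei held 804 and 534 CPM of it, above the 378 and 165 CPM of the Ccr2/Fn1 nuclei.

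F13a1, the A subunit of coagulation factor XIII, had the most UMIs of the list with 80 and 37. Its ratios of 2.35 (1.86 to 2.93) and 2.13 (1.5 to 2.95) were close between libraries, and 36 of 56 and 19 of 38 nuclei carried it. Ly6c2, which encodes the surface antigen Ly6C of classical monocytes, was less raised. It had 35 and 22 UMIs and ratios of 1.80 (1.25 to 2.52) and 1.39 (0.87 to 2.11). Granule protease nuclei held similar levels of it, at 254 and 304 CPM against 281 and 302 in the Ccr2/Fn1 nuclei. The receptor gene Csf1r, whose ligand sustains monocytes and macrophages, had only 4 and 2 UMIs, and its ratios of 1.63 (0.44 to 4.25) and 1.68 (0.20 to 6.15) could not be told from 1 at this depth. Cx3cr1, the fractalkine receptor gene, had 10 and 2 UMIs, with ratios of 4.11 (1.94 to 7.71) and 1.41 (0.17 to 5.15).

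Genes of phagocyte function had summed ratios of 3.17 (2.82 to 3.54) in library 1 and 2.22 (1.84 to 2.66) in library 2. Of its 16 genes, 4 of them also on the monocyte list, 15 lay above 1 in both libraries. Cybb, the catalytic subunit of the phagocyte NADPH oxidase, had 27 and 9 UMIs and ratios of 5.43 (3.54 to 8.03) and 3.27 (1.48 to 6.25). Psap, the precursor of the lysosomal saposins, had 52 and 15 UMIs and ratios of 4.84 (3.59 to 6.40) and 3.15 (1.75 to 5.23). Both genes had intervals above 1 in each library. As with Lyz2, late granule nuclei held more Cybb, at 488 and 302 CPM against 217 and 124 in the Ccr2/Fn1 nuclei. The whole phagocyte list stood at 2531 and 1663 CPM in the Ccr2/Fn1 nuclei and at 1945 and 1572 in late granule nuclei, with overlapping intervals in library 2. Tgfbi, a secreted matrix protein gene, reached 5.66 (2.22 to 12.1) and 9.02 (3.82 to 18.2) on 7 and 8 UMIs. Vcan, which encodes the proteoglycan versican, reached 38.1 (13.2 to 99.4) and 27.4 (6.93 to 79.4) on 7 and 4 UMIs. Like fibronectin, both of these products belong to the extracellular matrix, and both rested on few molecules. Mpeg1, a pore-forming protein gene of phagocytes, and Anxa2, a membrane-binding annexin gene, had ratios of 4.42 and 5.90 in library 1, with intervals above 1. In library 2 they had 3.21 (0.66 to 9.56) and 2.58 (0.70 to 6.67), on 3 and 4 UMIs.

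**Figure D2:**
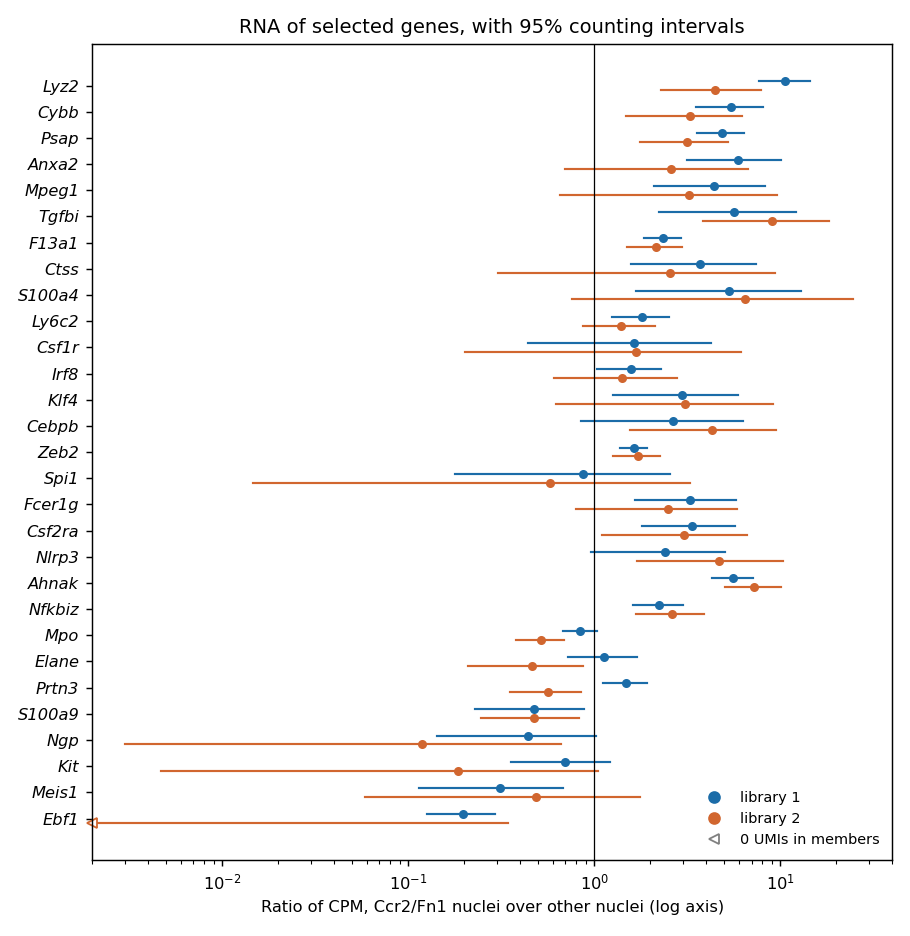
Ratio of CPM in Ccr2/Fn1 nuclei over other kept nuclei (x axis, log scale) for 29 genes outside the rule (y axis), in library 1 (blue) and library 2 (orange). Points are ratios, lines are 95% counting intervals cut at the axis limit, and an open triangle marks 0 UMIs in the Ccr2/Fn1 nuclei. Lyz2, Cybb, Psap, Tgfbi, F13a1, Zeb2, Csf2ra, Ahnak and Nfkbiz lay above 1 with their intervals in both libraries, whereas Ebf1 lay at 0.20 and 0.

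Among 12 transcription factor genes of monocytes, 8 lay above 1 in both libraries, and the summed ratio was 1.51 (1.33 to 1.72) and 1.76 (1.42 to 2.16). The list did not set these nuclei apart from the MHC class II nuclei, which held 1925 (1388 to 2602) and 826 (268 to 1928) CPM of it against 1937 (1700 to 2197) and 1278 (1032 to 1566). Zeb2 contributed most UMIs, 151 and 49, with ratios of 1.63 (1.38 to 1.91) and 1.71 (1.26 to 2.27). Irf8 had 27 and 8 UMIs and ratios of 1.57 (1.03 to 2.29) and 1.40 (0.61 to 2.78), and at 217 CPM in library 1 it lay below the 550 (284 to 961) of MHC class II nuclei, with overlapping intervals. Klf4 stood at 2.94 (1.26 to 5.90) and 3.06 (0.63 to 9.09) on 8 and 3 UMIs. Cebpb, a basic leucine zipper factor gene, stood at 2.65 (0.85 to 6.33) and 4.30 (1.56 to 9.50) on 5 and 6 UMIs. For these factors the counts fixed a direction in at most 1 library, except for Zeb2.

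Genes of sensing and of surface receptors were also measured in few molecules. The 12 measured genes of innate sensing summed to ratios of 2.15 (1.17 to 3.63) and 3.52 (1.74 to 6.34), but 8 of them had 0 UMIs in the Ccr2/Fn1 nuclei. Tlr2, the receptor for bacterial lipoproteins, and Nlrp3, the inflammasome sensor, carried most of that signal, with 4 and 4 UMIs of Tlr2 and 7 and 6 of Nlrp3. Tlr4 and its co-receptor Cd14 were among the genes at 0, where 3 counts would correspond to 24.1 CPM in library 1 and 41.2 in library 2. Fcer1g, the shared signaling chain of Fc receptors, had ratios of 3.26 (1.66 to 5.78) and 2.48 (0.80 to 5.85). Csf2ra, the alpha chain of the GM-CSF receptor, had 3.34 (1.80 to 5.67) and 3.02 (1.1 to 6.65), although the 16 growth factor receptor genes together did not differ from the other nuclei beyond counting error, at 0.92 (0.72 to 1.16) and 1.22 (0.86 to 1.67). Kit, whose protein the sort required, had 12 UMIs and a ratio of 0.70 (0.36 to 1.22) in library 1, and 1 UMI with a ratio of 0.19 (0.0047 to 1.04) in library 2. The 10 chemokine and receptor genes apart from Ccr2 summed to 1.98 (1.19 to 3.12) and 2.02 (1.07 to 3.47), and 4 of them, Ccr1 and Ccr3 included, had 0 UMIs.

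Of the programs of other lineages, the B lineage and stem cell lists had intervals below 1 in both libraries. The 7 B lineage genes summed to a ratio of 0.20 (0.13 to 0.28) in library 1, where 6 of 56 nuclei carried all 31 UMIs, and to 0 UMIs in library 2 (upper limit of the ratio 0.25). The other nuclei included the B lineage nuclei, at 6229 and 3568 CPM of this list. In library 1 the interval of the Ccr2/Fn1 nuclei, 169 to 354 CPM, lay above that of granule protease nuclei (59.9 to 82.1). It overlapped those of late granule (57.7 to 170) and MHC class II nuclei. In library 2 their upper limit of 50.7 CPM did not separate them from granule protease, late granule or MHC class II nuclei. The 7 stem cell genes stood at 0.19 (0.078 to 0.40) and 0.34 (0.069 to 0.99), on 7 and 3 UMIs. No UMI of the 8 erythroid or 5 megakaryocyte genes was seen, with upper limits of the ratio of 0.65 and 2.50 for the erythroid and 1.09 and 2.97 for the megakaryocyte list, so that only library 1 placed the erythroid list below 1. Plasmacytoid dendritic genes stood at 0.57 (0.41 to 0.78) and 0.75 (0.41 to 1.25), and conventional dendritic genes at 0.96 (0.62 to 1.40) and 1.30 (0.72 to 2.14). The macrophage list had 2 and 0 UMIs, and C1qa, C1qb and C1qc had none. The NK and T cell list, by contrast, had ratios of 2.18 (0.93 to 4.35) and 2.57 (0.83 to 6.06) on 8 and 5 UMIs, of which Il2rb, the interleukin-2 receptor beta chain, held 3 and 2. Of its 6 genes 3 had 0 UMIs.

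Granule genes stood at different ratios in the 2 libraries, which was not tested, and in library 1 they rested on few nuclei. The 7 granule protease genes had a summed ratio of 1.04 (0.90 to 1.19) in library 1 and 0.49 (0.39 to 0.60) in library 2. Mpo, or myeloperoxidase, stood at 0.84 (0.68 to 1.03) and 0.52 (0.38 to 0.69). Prtn3, or proteinase 3, stood at 1.48 (1.12 to 1.92) and 0.56 (0.35 to 0.85), but without the 1 nucleus with most Prtn3 UMIs library 1 stood at 1.07 (0.76 to 1.46). In library 1, 2 of the 56 nuclei held 79 of the 196 granule protease UMIs, and without them the ratio was 0.69 (0.57 to 0.82). Without the 2 nuclei with most Mpo UMIs, Mpo in library 1 stood at 0.54 (0.40 to 0.70). The other nuclei also differed, at 1520 CPM of these genes in library 1 and 2405 in library 2, whereas the Ccr2/Fn1 nuclei held 1575 and 1168. Late granule genes were lower in both libraries, at 0.64 (0.45 to 0.87) and 0.34 (0.21 to 0.52), and 1 nucleus held 23 of the 40 UMIs of library 1, which stood at 0.28 (0.16 to 0.45) without it.

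Interferon response genes summed to 1.87 (1.35 to 2.53) in library 1 and 1.29 (0.64 to 2.32) in library 2. In library 1 a single nucleus held 21 of the 43 UMIs, and without it the ratio was 0.98 (0.61 to 1.49). There 16 of 56 nuclei (28.6%) carried any, against 24.4% of the other nuclei. Of the 32 S phase genes 4 lay above 1 in both libraries and 14 below, with summed ratios of 0.89 (0.79 to 1.0) and 0.85 (0.70 to 1.02). Of the 866 genes with an expected count of at least 5 UMIs in each library, 177 lay above 1 in both libraries and 362 below, and divided by their median ratio the S phase list stood at 0.96 (0.86 to 1.08) and 0.95 (0.78 to 1.14). Of the 32 G2/M genes 11 lay above 1 in both and 7 below, with 1.09 (0.99 to 1.21) and 1.1 (0.91 to 1.31), or 1.18 (1.06 to 1.31) and 1.22 (1.02 to 1.46) divided by that median. Without the 2 nuclei with most G2/M UMIs of each library, the undivided ratios were 0.97 (0.87 to 1.08) and 0.96 (0.78 to 1.17). Neither cell cycle list differed from the other nuclei by as much as 1.5-fold.

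Across all genes, 866 had an expected count of at least 5 UMIs in the Ccr2/Fn1 nuclei of each library, the 6 genes of the rule left out. Only 3 of them (0.346%) were at least 2-fold higher in both libraries, and 14 (1.62%) at least 2-fold lower. The median ratio of the tested genes was 0.926 and 0.896, and dividing by it left 4 higher and 7 lower genes. Because a gene had to be abundant in these small libraries to be tested, 3 of the 11 monocyte genes and 2 of the 16 phagocyte genes entered this count. The higher genes were Ahnak, Nfkbiz and F13a1. Ahnak, a very large scaffold protein gene, had 68 and 36 UMIs and the highest ratios, 5.59 (4.31 to 7.15) and 7.23 (5.03 to 10.1). The few MHC class II nuclei, 14 and 4, held more of it, at 1238 (816 to 1801) and 826 (268 to 1928) CPM against 546 and 495, with overlapping intervals in library 2. In thinned nuclei it was detected in 44.4% against 7.55% in library 1 and 33.3% against 5.89% in library 2. Nfkbiz, the atypical inhibitor of NF-kB that acts in the nucleus, had 44 and 24 UMIs and ratios of 2.22 (1.61 to 2.99) and 2.61 (1.67 to 3.90).

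The lower genes included Ebf1, the B lineage factor, at 0.20 (0.13 to 0.29) and 0, and 3 late granule genes, S100a9, Camp and Ngp. S100a9, a calcium-binding protein gene of neutrophils, stood at 0.48 (0.23 to 0.88) and 0.48 (0.25 to 0.83). The share of nuclei with any S100a9 UMI differed less, at 10.7% against 12.2% of the others in library 1 and 26.3% against 23.3% in library 2. Msi2, an RNA-binding protein gene of stem and progenitor cells, stood at 0.49 (0.31 to 0.73) and 0.37 (0.10 to 0.96), and the chromatin organizer gene Satb1 at 0.23 (0.074 to 0.53) and 0.49 (0.10 to 1.43). Also lower were 2610307P16Rik, Smarca4, Smarcc1, Pkn2, Bdp1, Ints6 and Larp4. Smarca4 and Smarcc1, both subunits of the SWI/SNF chromatin remodeling complexes, had 10 and 9 UMIs in library 1 and 1 and 0 in library 2.

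Outside the lists, 112 genes reached 20 UMIs in the Ccr2/Fn1 nuclei of both libraries. Since that minimum is on observed UMIs, a gene could pass because it was high there, and the values are a description. The 10 with the largest smaller ratio were Ahnak, Nfkbiz, Ptprc, Actb, Rps23, Lbr, Pim1, Rpl34, Gpx1 and Eef1b2. For Rps23 and Rpl34, 1 nucleus of library 1 held 42 of 87 and 28 of 48 UMIs. There Rps23 was detected in 51.8% of the Ccr2/Fn1 nuclei against 53.5% of the others, and Rpl34 in 28.6% against 34.8%. In library 2 the shares were 68.4% against 47.9% and 36.8% against 28.8%. Ptprc, the pan-leukocyte phosphatase CD45, reached 1.79 (1.35 to 2.32) and 1.86 (1.16 to 2.83), and Actb, or beta-actin, 1.89 (1.64 to 2.18) and 1.56 (1.24 to 1.93). Pim1, a kinase gene induced by cytokine signaling, stood at 1.36 (0.99 to 1.82) and 1.95 (1.31 to 2.78). Among 104 genes with an expected count of at least 20, the lowest were Rnf220, Malat1, Hsp90ab1, Hnrnph1, Cdk6, Ncl, Eif4a1, Hsp90aa1, H2afy and Tra2b. Rnf220, a ubiquitin ligase gene, stood at 0.58 (0.43 to 0.76) and 0.55 (0.31 to 0.89). Malat1, an abundant nuclear noncoding RNA, stood at 0.66 (0.60 to 0.73) and 0.64 (0.55 to 0.75), and Cdk6, a cell cycle kinase gene of progenitors, at 0.48 (0.36 to 0.63) and 0.71 (0.45 to 1.05).

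The Ccr2/Fn1 nuclei were not uniform, and their RNA differed with the number of UMIs that selected them. Levels were set against nuclei of the same library with 0 UMIs of both genes, whatever their MHC class II UMIs. The nuclei with a sum of 1 were the 295 and 398 with at most 1 MHC class II UMI. For nuclei with a sum of 1, of 2 and of 3 or more, Ahnak stood at 2.67, 3.55 and 9.40 (6.85 to 12.6) in library 1 and at 1.32, 5.66 and 16.3 (8.66 to 28.1) in library 2. The monocyte list stood at 1.56, 2.27 and 3.10 (2.59 to 3.67) in library 1 and at 1.23, 1.58 and 3.28 (2.18 to 4.74) in library 2. Both series were ordered alike in the 2 libraries, although some neighbouring intervals overlapped. Lyz2 was ordered in library 1, at 2.07, 3.97 (1.8 to 7.64) and 19.9 (13.8 to 27.8), but in library 2 its values of 1.51, 4.57 (2.18 to 8.49) and 4.67 (0.56 to 17.0) did not separate the last steps, with 2 UMIs at 3 or more. Cybb stood at 1.78, 1.17 (0.24 to 3.43) and 11 (6.98 to 16.7) in library 1, and at 1.04, 3.06 (1.22 to 6.36) and 4.47 (0.54 to 16.2) in library 2. Granule proteases in library 1 stood at 1.39 (1.17 to 1.64) at a sum of 2, where 2 of 29 nuclei held 79 of the 143 UMIs and the others stood at 0.76 (0.58 to 0.97). At 3 or more they stood at 0.61 (0.46 to 0.80). In library 2 they were below 1 at both, at 0.53 (0.42 to 0.66) and 0.24 (0.098 to 0.50). Mpo at these sums stood at 1.15 (0.90 to 1.46) and 0.46 (0.29 to 0.68) in library 1 and at 0.59 (0.43 to 0.79) and 0.13 (0.016 to 0.48) in library 2, the last from 2 UMIs. Without the 2 nuclei with most Mpo UMIs, the sum of 2 in library 1 stood at 0.61 (0.41 to 0.87). The B lineage list in library 1 stood at 0.58, 0.33 (0.22 to 0.48) and 0.027 (0.0033 to 0.098), and in library 2 no member carried it. Only 8 nuclei of library 2 held 3 or more UMIs.

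**Figure D3:**
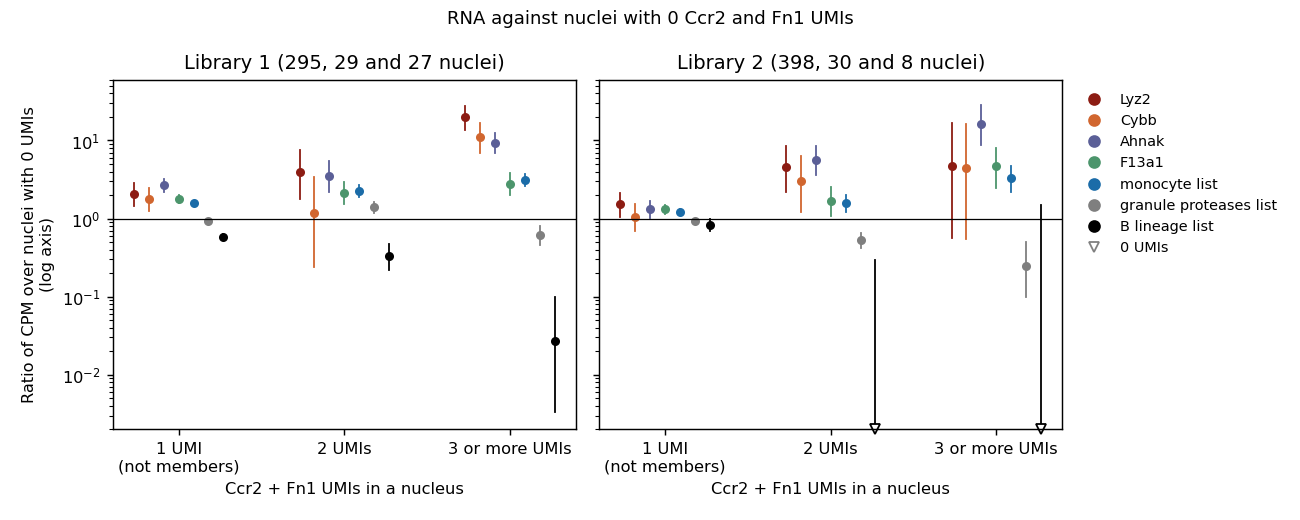
Ratio of CPM over nuclei with 0 Ccr2 and Fn1 UMIs (y axis, log scale) in library 1 (left) and library 2 (right), for nuclei with 1 UMI, which lie outside the selection, and for Ccr2/Fn1 nuclei with 2 or with 3 or more UMIs (x axis). Lines are 95% counting intervals cut at the axis limit, and open triangles mark 0 UMIs. Lyz2 reached 19.9 in library 1 and 4.67 in library 2 at 3 or more UMIs, and Ahnak 9.40 and 16.3.

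Nuclei selected on Ccr2 alone, on Fn1 alone or on both were compared in the same way. Granule proteases in library 1 stood at 1.25 (1.02 to 1.52) with Ccr2 alone, 0.49 (0.32 to 0.72) with Fn1 alone and 1.22 (0.95 to 1.55) with both. A single Ccr2-only nucleus held 31 of 102 UMIs, and the ratio was 0.93 (0.73 to 1.18) without it. Among nuclei with both genes, 1 held 48 of 68 UMIs, and without it they stood at 0.47 (0.29 to 0.73). In library 2 they stood at 0.62 (0.47 to 0.79), 0.40 (0.24 to 0.63) and 0.17 (0.055 to 0.40), so that Ccr2-only and Fn1-only nuclei overlapped there. Ahnak stood at 3.85 (2.27 to 6.12) and 7.22 (4.5 to 11) with Ccr2 and Fn1 alone in library 1, and at 4.01 (2.0 to 7.22) and 9.92 (5.26 to 17.1) in library 2. Lyz2 stood at 7.26 (3.82 to 12.6) and 8.58 (4.08 to 16.0) in library 1 and was highest in nuclei with both genes, at 19.6 (12.4 to 29.8) and, in library 2, 11.5 (3.7 to 27). The intervals of Lyz2 overlapped among all 3 kinds of nuclei in each library, as did those of Ahnak between Ccr2-only and Fn1-only nuclei.

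ATAC counts, used for the depth limits but not by the UMI rule, were few at the selecting genes themselves. Counts were summed over peaks in each gene and the 2 kb before its start, scaled to the total, and given intervals on pairs of counts, since 82.5% of the entries were even. The Ccr2 locus had 31 and 10 counts and ratios of 1.23 (0.70 to 2.03) and 0.89 (0.29 to 2.09). The Fn1 locus had 37 and 13 counts and ratios of 1.64 (0.98 to 2.59) and 1.17 (0.45 to 2.49). Over all Ccr2/Fn1 nuclei, neither locus differed from the other nuclei beyond counting error at this depth. Against nuclei with 0 selecting UMIs, both libraries together, Fn1-only nuclei stood at 2.12 (1.07 to 3.74) at Ccr2 and 2.26 (1.15 to 3.99) at Fn1. In each library alone these intervals spanned 1. Ccr2-only nuclei stood at 0.74 (0.27 to 1.61) and 0.66 (0.21 to 1.54), and nuclei with both genes at 0.66 (0.14 to 1.94) and 2.02 (0.90 to 3.91). Over 7 alternatives the Fn1 locus of library 1 lay between 1.36 (0.69 to 2.41), without nuclei that met another set's rule, and 1.99 (1.02 to 3.48), with 3 or more selecting UMIs, and 3 of the 7 intervals lay above 1. In library 2 it lay between 0 and 1.2 and every interval spanned 1.

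For 5 gene lists, summed accessibility differed from the other nuclei by less than RNA did. The loci of the monocyte list stood at 1.22 (1.11 to 1.33) and 1.23 (1.08 to 1.40), those of phagocyte genes at 1.28 (1.17 to 1.41) and 1.28 (1.11 to 1.47), and those of innate sensing at 1.25 (1.12 to 1.38) and 1.29 (1.11 to 1.5). B lineage loci stood at 0.60 (0.49 to 0.72) and 0.63 (0.45 to 0.86), and stem cell loci at 0.64 (0.55 to 0.75) and 0.73 (0.59 to 0.90). All 5 lists had intervals clear of 1 in both libraries, while peaks at gene starts as a whole stood at 0.997 and 1.03. Late granule loci stood at 1.27 (0.99 to 1.60) and 1.16 (0.81 to 1.61), on the other side of 1 from their RNA. Against single sets the monocyte loci were less distinct. Scaled like CPM, they held 817 (747 to 892) and 865 (758 to 983) ATAC counts in the Ccr2/Fn1 nuclei. MHC class II nuclei held 898 (720 to 1106) and 601 (231 to 1270), with overlapping intervals in both libraries. Granule protease, late granule and B lineage nuclei held less, with intervals below those of the Ccr2/Fn1 nuclei in both libraries. Single loci had wider intervals. Nlrp3 stood at 1.66 (1.2 to 2.23) and 1.61 (1.02 to 2.42), and Cybb stood at 1.49 (1.05 to 2.05) and 1.49 (0.89 to 2.34). The Irf8 locus, whose RNA ratios were 1.57 and 1.40, stood at 0.96 (0.67 to 1.33) and 0.86 (0.45 to 1.48). Ebf1 stood at 0.54 (0.37 to 0.76) and 0.49 (0.23 to 0.91).

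Of 11452 peaks with an expected count of at least 10 in each library, 7 (0.0611%) were at least 2-fold higher in both libraries and 41 (0.358%) at least 2-fold lower. When a peak was counted once per nucleus as open or not, 2666 peaks reached the minimum and 0 passed in either direction. The 7 higher peaks were each open in a larger share of the Ccr2/Fn1 nuclei than of the others, by 1.60-fold to 2.66-fold. The higher peaks lay near Atp6v1g3, Asgr2, Cdc42bpb, Fyb, Stpg4, Gtf3c5 and Prkrip1. The peak at the start of Cdc42bpb, a kinase gene of the actin cytoskeleton, had ratios of 2.54 (1.75 to 3.58) and 2.27 (1.27 to 3.76). The lower peaks included one inside Pax5, a B lineage factor gene, at 0.29 (0.10 to 0.66) and 0.50 (0.10 to 1.46). The peak at the start of Lyl1, a hematopoietic factor gene, stood at 0.44 (0.24 to 0.76) and 0.41 (0.14 to 0.97). That at the start of Tlr4, a gene with 0 UMIs in these nuclei, stood at 0.36 (0.12 to 0.84) and 0.17 (0.0042 to 0.93).

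Rarer peaks with at least 20 counts in the Ccr2/Fn1 nuclei of each library were ranked by their smaller ratio. Since a minimum on the counts of the selected nuclei favors high ratios, the values are a description. The leading peak was chr9:123839992-123840871, within Fyco1, a gene of autophagosome transport, 11.5 kb downstream of its start. It had 25 and 22 counts and ratios of 5.18 (2.68 to 9.12) and 7.31 (3.62 to 13.2). It was open in 9 of 56 nuclei (16.1%) against 3.54% of the others in library 1 and in 7 of 38 (18.4%) against 4.23% in library 2. The next was chr13:44532473-44533384, between genes and 23.4 kb from the start of Gm47792, with 3.38 (2.0 to 5.36) and 3.42 (1.73 to 6.08). The central 300 bases of both peaks are printed because they ranked highest at this minimum. The 250 bases before the start of Cybb are printed for its RNA and locus ratios above 1. Its locus interval in library 2 spanned 1. All printed stretches are RefSeq sequences of GRCm38.p6. The peaks are on the plus strand (chr9:123840282-123840581 and chr13:44532779-44533078) and Cybb on the minus strand, its own (chrX:9469325-9469574). Capitals mark matches on either strand to 12 short motifs.
Fyco1 peak: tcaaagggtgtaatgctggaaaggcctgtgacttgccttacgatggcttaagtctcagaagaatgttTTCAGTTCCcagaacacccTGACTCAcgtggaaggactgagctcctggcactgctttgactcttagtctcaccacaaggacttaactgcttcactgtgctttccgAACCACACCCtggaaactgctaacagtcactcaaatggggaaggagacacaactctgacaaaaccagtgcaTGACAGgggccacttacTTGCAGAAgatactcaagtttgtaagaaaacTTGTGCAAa
Gm47792 peak: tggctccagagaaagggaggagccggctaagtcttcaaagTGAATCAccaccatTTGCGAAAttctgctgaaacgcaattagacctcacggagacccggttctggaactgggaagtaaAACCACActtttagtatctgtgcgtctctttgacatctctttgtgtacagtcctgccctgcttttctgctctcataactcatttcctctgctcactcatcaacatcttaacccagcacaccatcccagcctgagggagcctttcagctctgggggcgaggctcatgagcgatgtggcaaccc
Cybb promoter: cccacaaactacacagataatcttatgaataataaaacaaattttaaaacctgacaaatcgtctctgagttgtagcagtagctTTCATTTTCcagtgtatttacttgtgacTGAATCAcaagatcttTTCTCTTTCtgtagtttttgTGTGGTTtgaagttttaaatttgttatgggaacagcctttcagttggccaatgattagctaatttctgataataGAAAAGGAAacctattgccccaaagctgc

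The Fyco1 stretch held 7 matches: the PU.1-IRF composite (GGAANNGAA) at base 68, AP-1 (TGANTCA) at 87, RUNX (TGTGGTT) at 173 overlapping KLF (GGGTGTGG) at 175, HOX-MEIS (TGACAG) at 244, and CEBP (TTGCNNAA) at 261 and 292. Its last 40 bases lay in a coding exon of Fyco1. The Gm47792 stretch held AP-1 at 41, CEBP at 55 and RUNX at 119. The Cybb stretch held IRF (GAAANNGAA) at 84, 128 and 222, AP-1 at 112 and RUNX at 148. Other stretches were read but not printed. The 250 bases before the start of Ahnak held 0 matches. The center of the next-ranked peak, near Tekt3, held E-box (CAGCTG) at 171 and HOX-MEIS at 213. Such letters are common: over 300-base centers of all 174282 peaks with sequence, 14.2% held CEBP, 12.6% the composite, 11.4% AP-1, 12.0% RUNX, 3.71% KLF and 22.1% HOX-MEIS. Over 32817 promoter stretches of the length printed for Cybb, 7.12% held IRF, 6.75% AP-1 and 4.39% RUNX. A match describes the sequence and does not show a bound factor.

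The Fyco1 peak, chosen for its counts in these nuclei, is split here by the selecting UMIs as a description. In library 1 it was open in 3.32% of nuclei with 0 UMIs of Ccr2 and Fn1, 7.46% of the 295 with 1 and at most 1 MHC class II UMI, 6.90% with 2 and 25.9% with 3 or more. In library 2 the shares were 4.06%, 6.53%, 13.3% and 37.5%, the last being 3 of 8 nuclei (exact interval 8.52 to 75.5%). In granule protease nuclei it was open in 5.14% and 4.86%, and in B lineage nuclei in 0.280% and 0.727%. In MHC class II nuclei it was open in 1 of 14 (7.14%, exact interval 0.18 to 33.9%) and 1 of 4 (25.0%, 0.63 to 80.6%). These were too few to tell them from the Ccr2/Fn1 nuclei. The peak lay among chemokine receptor genes, at 21.6 kb from the start of Xcr1, 34.0 kb from Cxcr6, 128 kb from Ccr1 and 262 kb from Ccr2. All 131 peaks within 400 kb together had ratios of 1.17 (1.07 to 1.27) and 1.19 (1.05 to 1.34). The Fyco1 locus as a whole stood at 1.39 (1.06 to 1.78) and 1.99 (1.41 to 2.73), and the Ccr1 locus at 1.83 (0.98 to 3.12) and 2.31 (1.1 to 4.26). Both the window and the Fyco1 locus include the leading peak, so their values are not independent of its choice. It held 25 of the 124 locus counts in library 1 and 22 of the 77 in library 2. No RNA of Ccr1, Ccr3, Xcr1 or Cxcr6 was detected in the Ccr2/Fn1 nuclei. These genes were rare everywhere, so their absence tells little. All other nuclei held 17 and 26 UMIs of Ccr1, 0 and 0 of Ccr3, 4 and 2 of Xcr1, and 2 and 3 of Cxcr6.

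**Figure D4:**
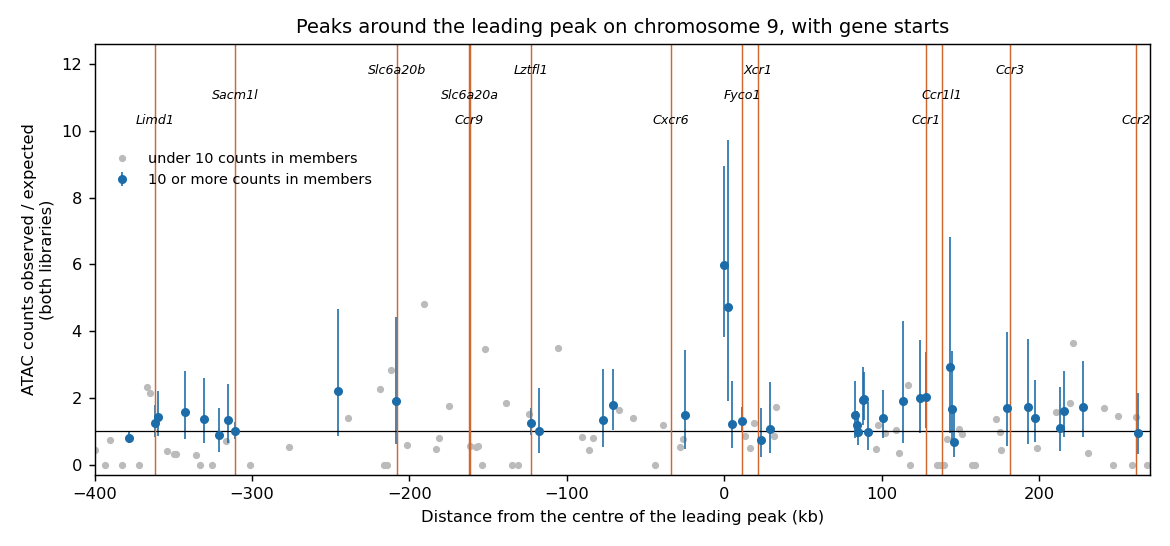
ATAC counts observed over expected in Ccr2/Fn1 nuclei (y axis, both libraries together) for peaks around the leading peak on chromosome 9, from Limd1 to Ccr2 (x axis, distance in kb), with orange lines at gene starts. Blue points have 10 or more counts with 95% counting intervals, and grey points have fewer. The leading peak stood at 6.0.

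Over 153865 peaks away from gene starts, motif content differed little. Peaks holding PU.1 (GAGGAAGT) stood at 1.09 (1.08 to 1.1) in library 1 and 1.02 in library 2, beside 1.0 and 0.976 for all such peaks. Those holding AP-1 stood at 1.05 and 1.02, and those holding KLF at 1.05 and 1.03. EBF (TCCCNNGGG) peaks stood at 0.945 and 0.946, and those with the letters AGATAAG, a motif of GATA factors, at 0.960 and 0.94. The order of PU.1 above EBF was the same in both libraries, and no group moved by as much as 10%.

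Because ATAC was measured apart from the rule, it was asked whether the Ccr2/Fn1 nuclei lay together in chromatin. Each nucleus was compared with its 20 nearest nuclei of the same library in 29 components of its ATAC profile. Of the neighbors of Ccr2/Fn1 nuclei, 10.2% were themselves such nuclei in library 1, where they made up 0.948%, and 5.66% in library 2, where they made up 0.493%. That is 10.7-fold and 11.5-fold their share. The clustering was partial, since 32 of 56 and 19 of 38 had no such neighbor, and 16 and 7 had 3 or more. Nuclei that met the B lineage rule, whether or not they met another, were 3.30% of their neighbors against 18.7% of library 1, and 0.263% against 3.77% of library 2. Counted in the same way, those that met the MHC class II rule were 2.68% against 0.356%, and 0.658% against 0.0519%.

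Nuclei with and without a neighbor of their kind differed in RNA. Measured against unselected nuclei with no Ccr2/Fn1 neighbor, those with such a neighbor had Lyz2 ratios of 21.9 (14.6 to 31.8) and 9.34 (4.44 to 17.4), whereas those without had 6.19 (3.49 to 10.2) and 1.32 (0.16 to 4.80). Granule proteases showed the reverse order, at 0.34 and 0.34 with a neighbor and 1.46 and 0.58 without. In library 1, 2 nuclei without a neighbor held 79 of 174 UMIs, and the others stood at 0.94 (0.76 to 1.15). Mpo stood at 0.26 and 0.24 with, and 1.19 and 0.71 without, or 0.73 (0.53 to 0.99) in library 1 without the 2 nuclei with most of it. S phase genes stood at 0.59 and 0.39 with, and 1.05 and 1.19 without. G2/M genes did not follow them, at 1.62 (1.40 to 1.86) and 1.08 (0.81 to 1.43) with, and 0.79 (0.68 to 0.92) and 1.10 (0.86 to 1.38) without. Of the 24 and 19 nuclei with a neighbor, 17 and 7 had 3 or more selecting UMIs and 0 met the rule of another set. All 13 and 5 nuclei that met another set's rule were among those without. The selection held nuclei grouped in chromatin, with high Lyz2 and low granule RNA, beside nuclei placed elsewhere.

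The unselected nuclei beside them shared part of this RNA. Those with 2 or more Ccr2/Fn1 nuclei among their neighbors numbered 121 in library 1 and 107 in library 2. Their Lyz2 ratios were 4.55 (2.97 to 6.72) and 5.13 (3.28 to 7.69), and their Ahnak ratios were 9.43 and 6.34. Cybb stood at 5.70 and 2.53, and Tgfbi at 8.42 and 8.08. Ly6c2 stood at 1.11 and 0.78, so this surface antigen gene was not raised among them. Of these nuclei 22.3% and 15.9% carried 1 UMI of Ccr2 or Fn1, against 4.4% and 5.01% of those with no Ccr2/Fn1 neighbor. In library 1, 8.26% met the MHC class II rule, against 0.935% in library 2. The Fyco1 peak was open in 14.0% and 8.41% of these unselected nuclei. Their median ATAC counts were 15855 and 11445, below the 19464 and 16298.5 of all unselected nuclei, and the part of depth in their placement was not tested.

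**Figure D5:**
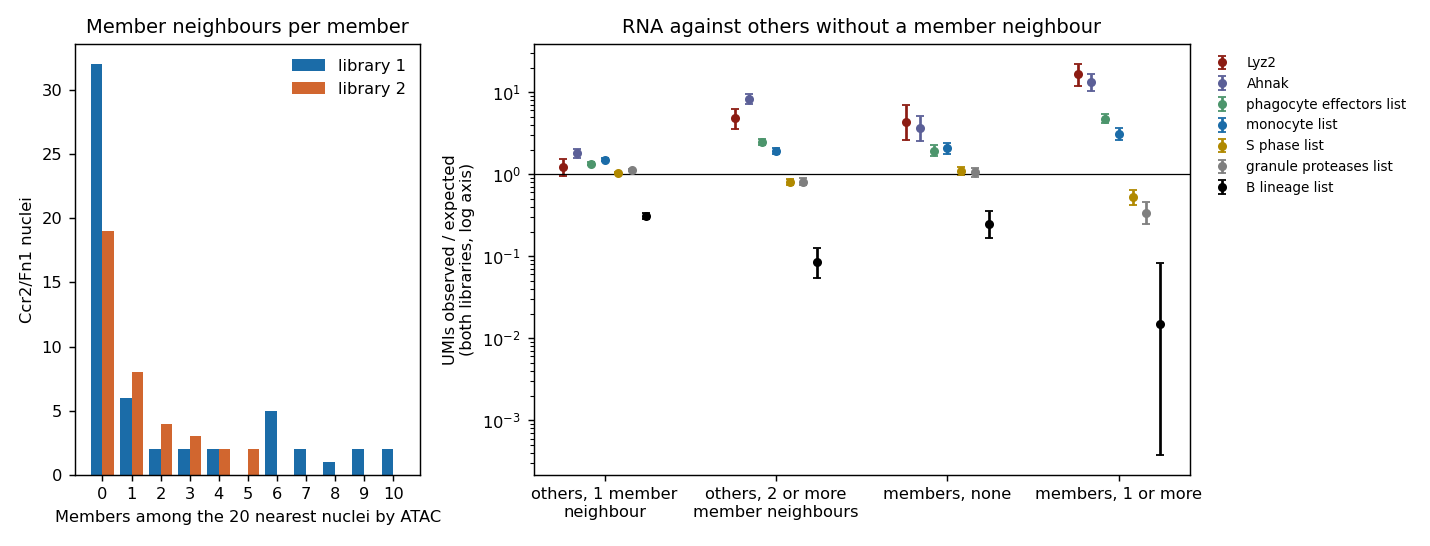
Left, number of Ccr2/Fn1 nuclei (members, y axis) by how many of their 20 nearest nuclei by ATAC were members (x axis), in library 1 (blue) and library 2 (orange). Right, UMIs observed over expected (y axis, log scale, both libraries together) against other nuclei without a member neighbor, for 2 genes and 5 gene lists in 4 sets of nuclei, with 95% counting intervals. Lyz2 stood at 16.5 in members with a member neighbor and 4.39 in those without, and 32 and 19 members had none.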

How the data were processed

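Nuclei from pooled bone marrow HSPCs were profiled by single-cell multiome sequencing (RNA and ATAC in the same nucleus). Per the submitters' processing notes, Cell Ranger ARC 2.0.0, Seurat 4.0.3 and Signac 1.3.0 were used, with mm10 (GRCm38). The deposited matrix holds raw counts that the authors did not normalize: UMI counts for 32272 genes and ATAC counts for 174339 peaks over 18961 barcodes, of which 13619 were kept. Genes were matched to GENCODE vM21 by identifier (99.6%). Sequences came from RefSeq GRCm38.p6. No column lacked a mapped measure, and no cell type annotation was used.

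UMIs and ATAC counts were summed over the Ccr2/Fn1 nuclei and over all other kept nuclei of each barcode suffix, since nuclei are not replicates. With 1 sample per group and no link from suffix to group, no test was run and no p-value is given. Shares have exact binomial (Clopper-Pearson), levels exact Poisson and ratios exact conditional binomial 95% intervals, for counting error only. A gene or peak was called at a 2-fold ratio in both libraries, given an expected count of at least 5 UMIs or 10 ATAC counts. Neighbors were found within a library in components 2 to 30 of latent semantic indexing of ATAC counts. No doublet caller was run, and the 5% of nuclei with most UMIs were left out as an alternative. Alternatives covered the thresholds of the rule, the depth limits, the scaling, the filters and the number of neighbors. Values without the 1 or 2 nuclei with most UMIs of a gene or list were added after seeing the data.

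Named genes were the 254 measured genes of 23 lists and, outside them, the 10 highest and 10 lowest ratios at a minimum of 20 observed or expected UMIs. Named peaks were the 10 highest at a minimum of 20 counts and those within 50 kb of Ccr2 and Fn1. The members, lists and comparison sets were chosen with earlier results of these data known, and some items of these lists and calls are not reported here. The counting and ratio steps were tested on simulated data. Python 3.11.15, numpy 2.4.6, scipy 1.17.1, pandas 2.3.3, scikit-learn 1.9.0 and matplotlib 3.10.9 were used.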

Additional observations from a re-analysis of the deposited data

Results flagged for a closer look

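Barcodes outside the depth limits entered no comparison. Of the 2857 such barcodes of library 1, 8 (0.280%, exact interval 0.121 to 0.551) nevertheless met the UMI rule for Ccr2 and Fn1. This was above the floor of 3 barcodes (0.105%) used to flag such counts. In library 2, 3 of 2485 did (0.121%, 0.0249 to 0.352), which is no more than that floor. Among the barcodes above 50000 ATAC counts, 3 of 475 in library 1 and 1 of 124 in library 2 met the rule.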

How the results depend on the processing

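Of 144 recomputed values 103 stayed within counting error or 1.5 times the main count, and 41 did not. No value with an interval clear of 1 changed side. The G2/M ratios of both libraries and the locus ratios of library 2, whose intervals spanned 1, crossed it under some settings. No paired analysis was possible because no suffix could be tied to a sample and no test was made. With 3 or more selecting UMIs, the share was 0.457% and 0.104% in libraries 1 and 2, the monocyte ratio 2.98 and 3.22, the S phase ratio 0.703 and 0.279, and the neighbor share 16.7% and 3.13%. In library 2 the Ccr2 locus then stood at 3.81 and the Fn1 locus at 0. With 50 neighbors the neighbor share was 7.75% and 4.11%. Without nuclei that met another set's rule, it was 13.3% and the S phase ratio 0.766 in library 1. Without the 5% of nuclei with most UMIs, the G2/M ratio of library 1 was 1.31, and 21 peaks were lower. In an alternative chosen after seeing the data, the 2 nuclei with most UMIs of the list were left out. The G2/M ratio of library 1 was then 0.97 and that of library 2, within counting error, 0.96. At 500 genes, which left 46 and 11 nuclei, the Ccr2 locus of library 2 stood at 0.

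Counts of calls moved most, in part because fewer features were tested. Higher genes numbered 1 of 69 with 3 or more UMIs, 0 of 284 at 500 genes, 18 of 2596 and 0 of 108 at expected minimums of 2 and 20, and 14 at 1.5-fold. Lower genes numbered 3, 1, 93, 1 and 53 under the same settings, 9 against deeper other nuclei, 7 without ribosomal locus genes and 7 after scaling to the median. Higher peaks numbered 0 of 20 with 3 or more UMIs, 0 of 1280 at 500 genes, 0 of 2666 counted as open or not, 0 of 4503 at an expected minimum of 20, and 169 at 1.5-fold. Lower peaks numbered 3, 0, 0, 1 and 260. Beyond this, the causes were not tested. Depth limits single genes, since 94 nuclei gave fewer than 10 UMIs of many named genes in a library.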
